A study of Rattus norvegicus with 24 samples.

Results

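The 10 genes described here make proteins that cut, modify, degrade or carry small RNAs: the ribonucleases Ang and Rnaset2, the ribonuclease inhibitor Rnh1, the tRNA 3′ end nuclease Elac2, the tRNA methyltransferases Nsun2 and Trdmt1, the microRNA-processing nucleases Drosha and Dicer1, the small-RNA carrier Ago2 and the exonuclease Xrn1. They were chosen by name, a locus being taken where 1 of its gene names in the deposited annotation was a gene of the set. Each name had 1 locus, so the set holds 10 of the 26641 named loci. Messenger RNA of 6 rats with traumatic brain injury (TBI) and 6 sham-operated rats was sequenced in 2 regions, the cortex beside the lesion (perilesional) and the thalamus of the injured side (ipsilateral), giving 24 libraries. The rats were adult male Sprague-Dawley rats sampled 3 months after surgery. TBI rats had a lateral fluid-percussion injury, in which a pressure pulse is delivered to the dura through an opening in the skull. Sham-operated rats had the anaesthesia and the craniectomy without the pulse. Per the study's methods, the TBI rats that were sequenced were picked for signs of chronic inflammation, so they do not stand for all injured rats. Both regions came from the same rats.

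Transfer RNAs carry amino acids to the ribosome, and under stress they are also cut into fragments. Angiogenin, the product of Ang, cuts tRNAs in or beside the anticodon loop, and the lysosomal and secreted ribonuclease RNASET2 can cut them as well. The inhibitor RNH1 binds angiogenin and its relatives and blocks them, while methyl groups placed by NSUN2 and TRDMT1 shield tRNAs from cleavage. Dicer1 and Drosha are best known for making microRNAs, and the short fragments of tRNAs can, like microRNAs, be held by Argonaute proteins such as AGO2. The libraries were made from polyadenylated RNA, so they measure the messengers of these proteins. The tRNA fragments themselves were not analysed here.

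The deposited values, called normalized counts below, are fragment counts per locus to which the authors applied 1 scaling factor for each library. They compare 1 gene between libraries, not genes with each other. After this scaling the library totals were still unequal. The 24 libraries held 30568927 to 54608922 fragments. No gene of the set had fewer than 511 fragments in any library, a number reached by Trdmt1, and all 10 passed the filter on low values, a mean normalized count of at least 10. Cortical identity genes, such as Tbr1 and Neurod6, summed to 10629 to 12469.8 normalized counts in sham cortex and to 224 to 500.2 in sham thalamus, and thalamic ones, such as Tcf7l2, to 2496 to 2969 and 70112 to 98878, as the tissue labels state. Of the choroid plexus list, the thalamus library of TBI rat 45 had a summed level of 264501, against at most 2120.1 in the other TBI thalamus libraries and up to 109618 in sham thalamus. Differences are given as log2FC, the log2 fold change on log2(normalized count + 1), and a gene was called at a Benjamini-Hochberg adjusted p under 0.05 over all loci tested with limma. Each library of a group is a different rat.

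In the table Ang has no locus of its own. It shares XLOC_013734 with Rnase4, another secreted ribonuclease of the same family, so every Ang value is the sum of both genes. The locus spans 15:31850101-31866410 as the files list it. The labels name Rnor_5.0 as the build, while the paper's methods name a different build as the genome and Rnor_5.0 for the annotation. The files give neither the build nor whether positions count from 0 or 1, and which exons the counted fragments fell in is not recorded in them. Rnaset2 (XLOC_000336) lies at 1:54425132-54442302, Rnh1 (XLOC_004783) at 1:221067315-221081365, Elac2 (XLOC_006094) at 10:51236363-51259151 and Dicer1 (XLOC_033956) at 6:137586331-137640850. A paralog, Ang2, has a locus of its own that is listed at 0 in all 24 libraries. Paralogs of angiogenin are near copies, so how reads were shared among them is uncertain.

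The promoters of the 3 genes whose level was higher in TBI rats are shown first, with the starts of Ang and Rnase4, which share a locus in the files. In RefSeq's table for GRCr8, a later build whose positions are not those of the files, promoters run from 250 bases before to 50 after each gene start. The table held a promoter for 9 of the 10 genes, 12 promoters in all, and the remaining gene is Ago2. Rnase4 starts 54 bases after the first start of Ang, on the same strand, so their 300-base windows largely coincide. A second start of Ang lies 5007 bases after the first. Capitals mark any of 5 motifs on either strand: the GC box GGGCGG, the CCAAT box, the PU.1 core GAGGAA, the E-box CACGTG and the AP-1 motif TGAGTCA. The motifs were picked after the values were known.
Ang, first start, chr15:26785983-26786282, plus strand: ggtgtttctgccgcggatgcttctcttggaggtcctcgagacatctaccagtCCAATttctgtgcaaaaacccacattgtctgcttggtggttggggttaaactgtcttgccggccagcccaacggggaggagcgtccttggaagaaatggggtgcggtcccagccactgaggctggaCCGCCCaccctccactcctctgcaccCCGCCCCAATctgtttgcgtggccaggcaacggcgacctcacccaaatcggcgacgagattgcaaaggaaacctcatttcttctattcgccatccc
Rnaset2, chr1:55133282-55133581, plus strand: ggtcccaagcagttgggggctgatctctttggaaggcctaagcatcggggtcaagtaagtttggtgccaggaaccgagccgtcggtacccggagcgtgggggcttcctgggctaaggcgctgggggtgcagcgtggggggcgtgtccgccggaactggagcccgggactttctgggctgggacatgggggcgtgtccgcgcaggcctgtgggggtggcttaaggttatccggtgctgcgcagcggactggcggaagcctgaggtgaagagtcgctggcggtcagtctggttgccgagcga
Rnh1, first start, chr1:205711299-205711598, minus strand: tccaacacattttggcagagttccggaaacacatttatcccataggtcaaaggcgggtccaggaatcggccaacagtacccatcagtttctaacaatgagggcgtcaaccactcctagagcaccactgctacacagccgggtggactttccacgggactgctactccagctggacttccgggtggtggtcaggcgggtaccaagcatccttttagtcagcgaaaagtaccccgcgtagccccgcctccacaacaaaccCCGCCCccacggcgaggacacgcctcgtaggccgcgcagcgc
The Ang window held 2 GC boxes and 2 CCAAT boxes, that of Rnh1 1 GC box, and that of Rnaset2 none of the 5 motifs. Of all 33469 promoters, 33.1% held the GC box, 37.5% the CCAAT box, 27.6% the PU.1 core, 6.42% the E-box and 4.63% the AP-1 motif. Among the 9 genes with a promoter, 4 had a GC box, 5 a CCAAT box, 1 (Nsun2) the PU.1 core, 1 (Rnh1, in windows of later starts) the AP-1 motif and 0 the E-box. A match is a run of letters and not a shown site.

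Injury moved few of the 10 genes, and the clearest of them was Rnaset2, which rose in both regions. In the perilesional cortex 2 of the 10 genes were called, Rnaset2 and Rnh1, both higher in TBI rats. Of all 15493 loci tested there, 29.2% were called, 14.3% higher and 14.9% lower, so 2 of 10 is no more than the background. In the ipsilateral thalamus 3 of 10 were called: Rnaset2 and the Ang locus were higher and Elac2 was lower. Of the 15564 loci tested there 35.4% were called, 14.5% higher and 20.9% lower, and 3 of 10 is again near that share. Scaling libraries to the upper quartile changed the lower calls from 50.9% to 30.1% of all calls in cortex and from 59.1% to 39.99% in thalamus, with a shift of the median locus by 0.062 and 0.065. The median log2FC of the 10 genes was 0.0086 in cortex, beside -0.0096 over all loci, and 0.07 in thalamus, beside -0.02. In cortex the 6 TBI and 6 sham values did not overlap for 1 gene, Rnaset2, and in thalamus for 2, Rnaset2 and the Ang locus, beside 12.5% and 18.2% of all loci.

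**Figure D1:**
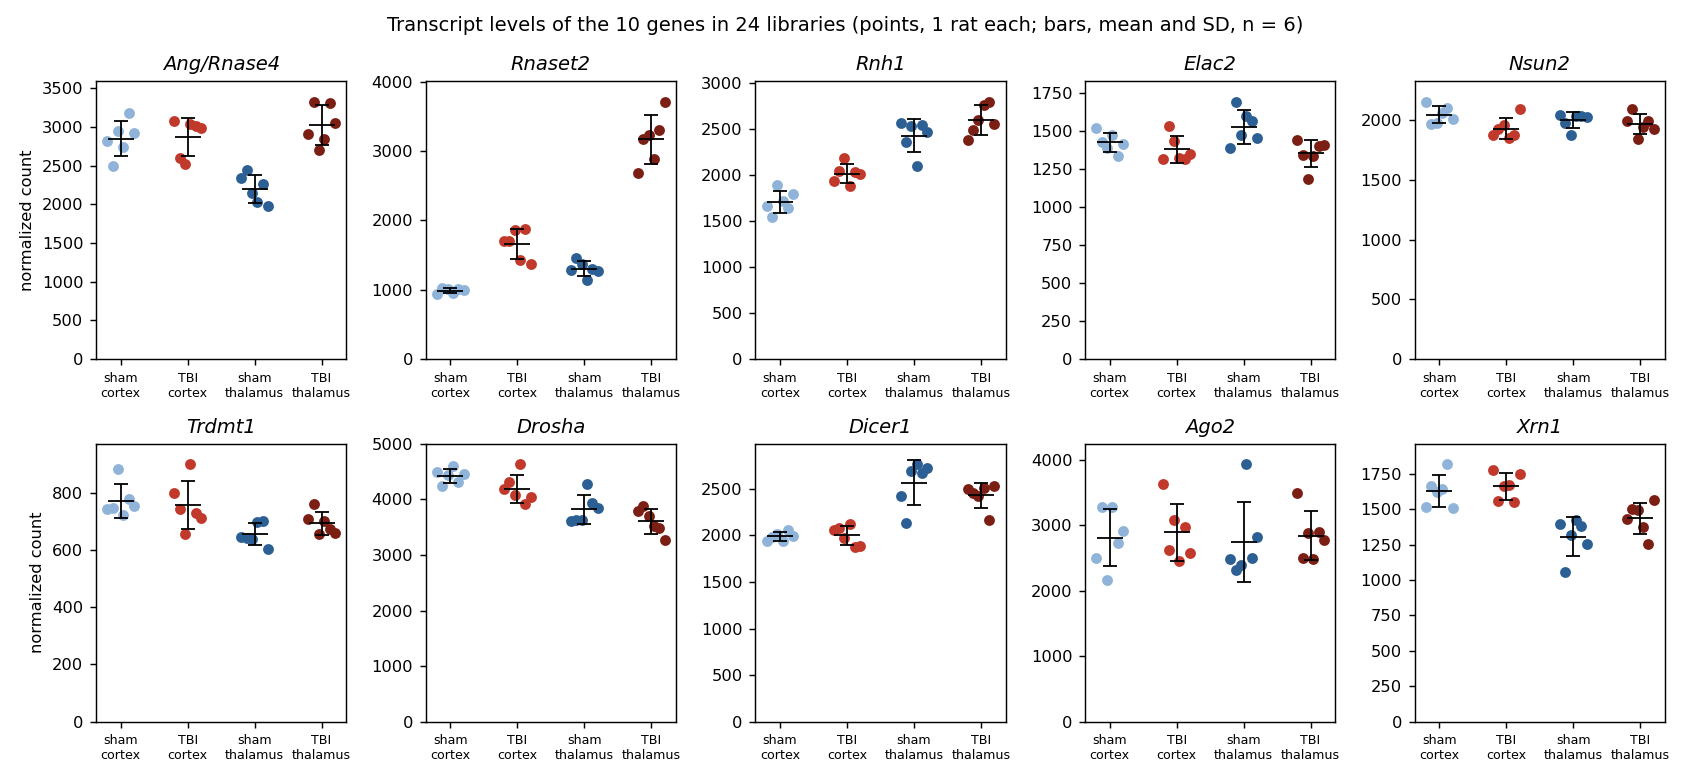
Normalized counts (y axis, from 0, a scale of its own for each gene) of the 10 genes in the 4 groups (x axis). Each point is the library of 1 rat, and bars give the mean and SD of 6 rats. Rnaset2 rises in both regions of TBI rats, and the Ang/Rnase4 locus is low only in sham thalamus, where it lies between 1982 and 2451.

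Rnaset2 encodes an acid ribonuclease of the lysosome. In sham cortex its normalized count ranged from 934 to 1026 with a median of 998, and in TBI cortex from 1369 to 1875 with a median of 1696. In sham thalamus the range was 1143 to 1463 with a median of 1288, and in TBI thalamus 2679 to 3712 with a median of 3207. All TBI libraries lay above all sham libraries of their region, and the lowest TBI thalamus library stood above every library of the other 3 groups. The mean rose from 987 ± 34.1 to 1655 ± 214 (SD, n = 6 each) in cortex, a 1.67-fold difference (log2FC 0.74, SE 0.08, limma adjusted p = 1.39e-05). In thalamus it rose from 1302 ± 107 to 3166 ± 358 (SD, n = 6 each), 2.43-fold (log2FC 1.28, SE 0.08, limma adjusted p = 5.44e-08). The rise was larger in thalamus than in cortex by 0.54 on the log2 scale (SE 0.11, limma adjusted p of the difference = 0.00384), where 7.26% of 15678 loci were called. With the rat as a replicate block, the paired fit gave an adjusted p of 0.00663 for that difference.

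Microglial genes moved with Rnaset2. Of 12 microglial markers, 11 rose in TBI cortex and 12 in TBI thalamus, and their summed level went from 12854 to 13900 in sham cortex to 18619 to 22281 in TBI cortex. In thalamus the sums were 14179 to 18559 in sham and 30096 to 39124 in TBI rats. None of the 12 markers was at 0 throughout a group. In bulk tissue, a change in the number of cells of a type and a change in RNA per cell cannot be told apart, and the part that microglial number plays in the values of Rnaset2 was not tested.

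**Figure D2:**
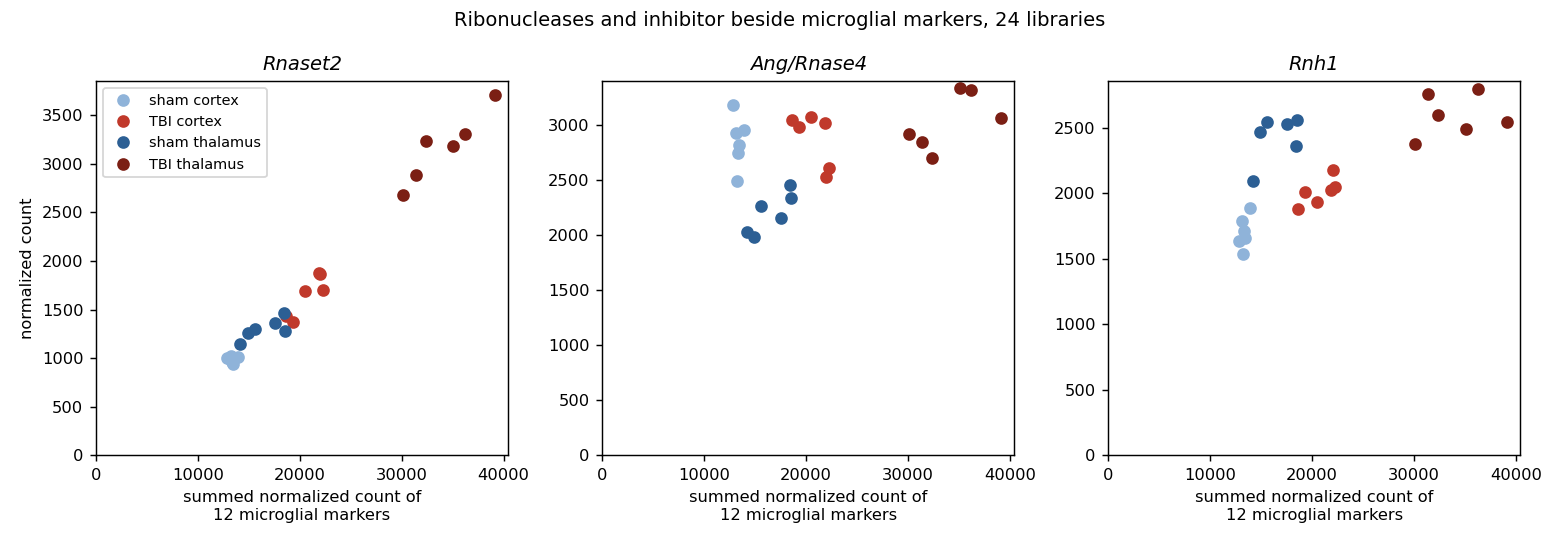
Normalized counts (y axis, from 0) of Rnaset2, the Ang/Rnase4 locus and Rnh1 against the summed normalized count of 12 microglial markers (x axis) in 24 libraries, coloured by group. Rnaset2 climbs with the marker sum through the 4 groups. The Ang/Rnase4 locus overlaps between sham cortex, at the lowest marker sums, and TBI thalamus, at the highest. Within thalamus both the locus and the marker sum are higher in TBI rats without overlap. The part of microglia in the locus or in Rnh1 was not tested.

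Over the 24 libraries and among 12843 named loci with a mean of at least 100, the highest Pearson r of log2 values with Rnaset2 was that of Npc2 (r = 0.993), which makes a cholesterol carrier of the lysosome. Next came Csf1r (r = 0.991), the colony-stimulating factor receptor of microglia and one of the 12 markers. Ctsz, a lysosomal cathepsin (r = 0.989), Golm1, a Golgi membrane protein (r = 0.989), and Laptm5, a lysosomal membrane protein of leukocytes (r = 0.988), followed. The 24 points share 4 groups and 12 rats, so these values largely describe the order of the groups. Npc2 had a mean of 3459 in sham cortex, 6680 in TBI cortex, 4920 in sham thalamus and 13992 in TBI thalamus.

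The Ang locus, by contrast, changed with injury in thalamus alone among the 2 regions. In cortex its normalized count ranged from 2491 to 3181 with a median of 2872 in sham rats and from 2526 to 3072 with a median of 2998 in TBI rats. The groups overlapped over nearly their whole range. The cortical means were 2852 ± 231 and 2873 ± 242 (SD, n = 6 each), with a log2FC of 0.010 and a 95% interval from -0.13 to 0.15 (limma adjusted p = 0.926). In thalamus the range was 1982 to 2451 with a median of 2206 in sham rats and 2702 to 3329 with a median of 2985 in TBI rats. Every TBI thalamus library was above every sham thalamus library. The mean rose from 2202 ± 182 to 3027 ± 255 (SD, n = 6 each), 1.37-fold (log2FC 0.46, SE 0.07, limma adjusted p = 0.000139). The 2 effects differed by 0.45 (SE 0.10, limma adjusted p of the difference = 0.00548), and by 0.44 (adjusted p = 0.00580) without both libraries of rat 45. In the paired fit, with the rat as a replicate block, the adjusted p of the difference was 0.0107. Because Ang and Rnase4 are counted together, which of them rose cannot be told apart in these values. The paper reported angiogenin as raised in thalamus by sequencing. Its quantitative PCR with gene-specific primers detected no significant rise of angiogenin in either region. Astrocyte markers moved with the locus in thalamus, where 5 of 9 rose and their sum was 285676 to 318670 in sham and 405577 to 466279 in TBI rats, and so did 4 of 8 endothelial markers, with sums of 13565 to 16844 and 15678 to 21683. All 12 microglial markers rose in thalamus too, with sums of 14179 to 18559 in sham and 30096 to 39124 in TBI rats. The part of these cell types in the value of the locus was not tested. In cortex, where the locus was not called, 5 of 9 astrocyte markers also rose and 2 fell, and 11 of 12 microglial markers rose.

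The thalamic rise brought the locus to its cortical level. In sham rats it was lower in thalamus than in cortex in 6 of 6 rats, by 0.023 to 0.56 on the log2 scale, with a log2FC of -0.37 (SE 0.06, limma adjusted p = 0.000113) and no overlap between the libraries. In TBI rats it was higher in thalamus in 4 rats and lower in 2, and the log2FC was 0.08 with a 95% interval from -0.07 to 0.22 (limma adjusted p = 0.368). The loci most like Ang over the 24 libraries were Rps3a, a ribosomal protein gene (r = 0.883), Mfsd1, which makes a lysosomal transporter (r = 0.861), Sat1, the spermidine acetyltransferase (r = 0.853), Marc2 (r = 0.850) and Traf3ip3 (r = 0.846). None of the 5 is a microglial marker of the list, and the cell source of the locus was not tested. All 5 had their lowest group mean in sham thalamus, as the locus did, which follows from choosing them by their likeness to it. Sat1, for example, had means of 4220 in sham cortex, 4495 in TBI cortex, 3271 in sham thalamus and 4361 in TBI thalamus.

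Rnh1, whose product inhibits angiogenin, rose in cortex by a small amount. Its normalized count ranged from 1539 to 1885 with a median of 1685 in sham cortex and from 1876 to 2176 with a median of 2017 in TBI cortex. Of the TBI libraries, 5 were above all sham libraries and 1 lay within their range. The mean rose from 1703 ± 122 to 2010.1 ± 103 (SD, n = 6 each), 1.18-fold (log2FC 0.24, SE 0.06, limma adjusted p = 0.00491). In thalamus the values ranged from 2091 to 2558 with a median of 2498 in sham rats and from 2377 to 2793 with a median of 2571 in TBI rats. These ranges overlapped, and the log2FC was 0.10 with a 95% interval from -0.03 to 0.22 (limma adjusted p = 0.212). The regional effects were not shown to differ (difference -0.14, SE 0.08, limma adjusted p = 0.301), so Rnh1 cannot be called particular to cortex. In cortex 11 of 12 microglial markers rose as well, and their part in the value of Rnh1 was not tested.

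**Figure D3:**
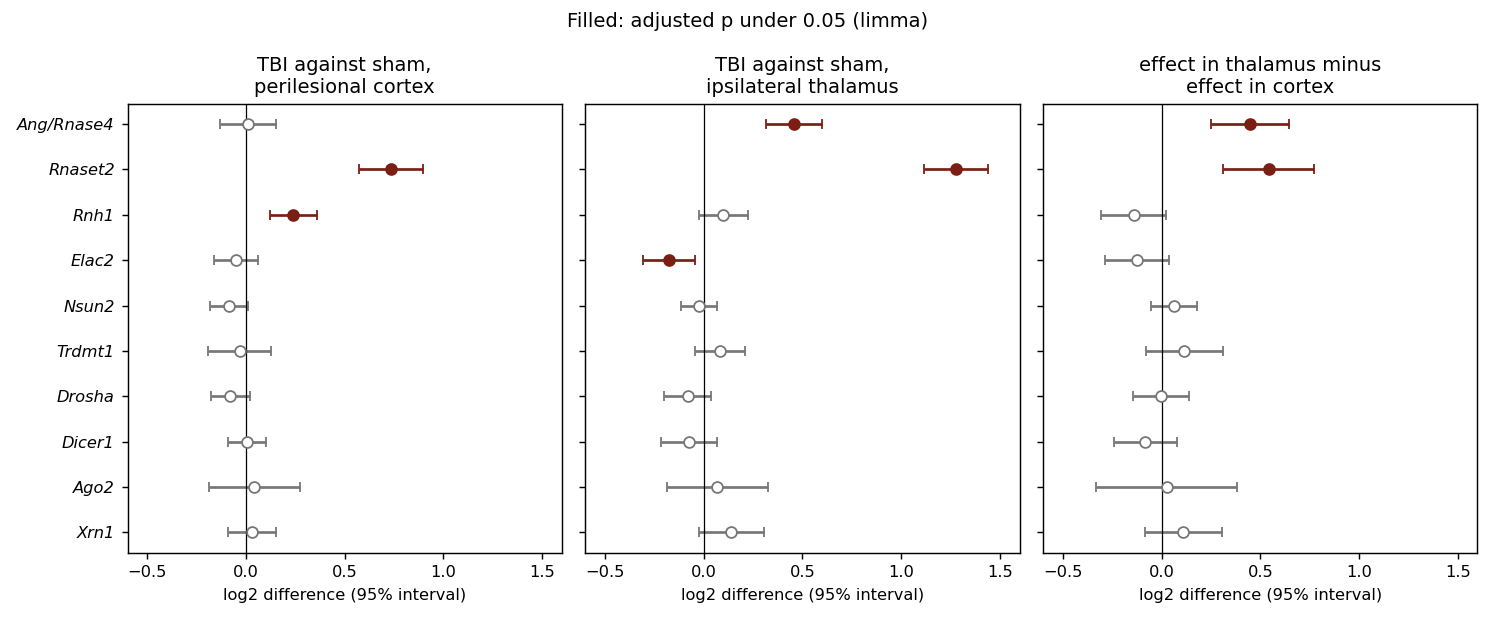
Log2FC with its 95% interval (x axis) of the 10 genes (y axis) for TBI against sham in cortex (left) and thalamus (middle), and the thalamic minus the cortical effect (right); filled points passed an adjusted p of 0.05. Rnaset2 stands at 0.74 and 1.28, the Ang/Rnase4 locus at 0.46 in thalamus, and the intervals of the other genes mostly cross 0.

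Elac2 encodes RNase Z, which cuts the trailer from the 3′ end of tRNA precursors and so releases trailer fragments. In sham thalamus it ranged from 1384 to 1692 with a median of 1519 and in TBI thalamus from 1187 to 1440 with a median of 1371. The ranges overlapped, and 3 TBI libraries were below all sham libraries. Its mean was 1528 ± 112 in sham and 1352 ± 90.2 in TBI rats (SD, n = 6 each), a fall to 0.885-fold (log2FC -0.18, SE 0.06, limma adjusted p = 0.0371). This call was the least secure of the set: it was lost on leaving out any 1 of 6 libraries, those of sham rats 32, 38 and 50 and TBI rats 24, 45 and 52 (adjusted p up to 0.0759, without TBI rat 45), and with upper quartile scaling (log2FC -0.11, adjusted p = 0.232). In cortex the log2FC was -0.05 with a 95% interval from -0.16 to 0.06 (limma adjusted p = 0.509). Neuronal markers, 11 of 12, fell in TBI thalamus too, and their part in the value of Elac2 was not tested.

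The methyltransferases that protect tRNAs showed no called change with injury. Nsun2, which makes 5-methylcytosine in many tRNAs, had means of 2048 ± 73.8 and 1930 ± 88.7 in sham and TBI cortex and of 2001 ± 65.8 and 1968 ± 84.8 in sham and TBI thalamus (SD, n = 6 each). Its 95% interval ran from -0.18 to 0.0100 in cortex (limma adjusted p = 0.165), with 5 TBI libraries below all sham libraries, and from -0.12 to 0.07 in thalamus (limma adjusted p = 0.694). Trdmt1, also known as DNMT2, which methylates the anticodon loop of a few tRNAs, had means of 771 ± 58.2 and 756 ± 84.3 in cortex and 655 ± 37.98 and 693 ± 39.7 in thalamus. Its intervals were -0.19 to 0.13 in cortex (limma adjusted p = 0.783) and -0.04 to 0.21 in thalamus (limma adjusted p = 0.306). The intervals leave room for changes of up to about the size seen for Rnh1.

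The microRNA-making nucleases were likewise not called. Dicer1, which cuts hairpin precursors, lay between 1934 and 2058 with a median of 1988 in sham cortex and between 1878 and 2120 with a median of 2016 in TBI cortex, so the TBI libraries reached both above and below the sham ones. The cortical 95% interval of its log2FC was -0.09 to 0.10 (limma adjusted p = 0.925). In thalamus Dicer1 ranged from 2135 to 2761 in sham and from 2161 to 2527 in TBI rats, with an interval of -0.22 to 0.06 (limma adjusted p = 0.400). Drosha, which releases those hairpins in the nucleus, had means of 4421 ± 128 and 4191 ± 253 in sham and TBI cortex (interval -0.18 to 0.02, limma adjusted p = 0.211). Its thalamic means were 3819 ± 261 and 3607 ± 226 (interval -0.20 to 0.04, limma adjusted p = 0.271).

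Ago2, the Argonaute protein able to cut its targets, was the most variable of the 10, with coefficients of variation of 13.0% to 22.2% within groups. Its libraries ranged from 2171 to 3280 in sham cortex, 2462 to 3625 in TBI cortex, 2319 to 3932 in sham thalamus and 2486 to 3498 in TBI thalamus. The 4 groups overlapped, and the 95% intervals of its log2FC were the widest of the set, -0.19 to 0.28 in cortex (limma adjusted p = 0.797) and -0.19 to 0.32 in thalamus (limma adjusted p = 0.701). Xrn1, the main cytoplasmic exonuclease acting from the 5′ end, had means of 1626 ± 114 and 1661 ± 92.6 in cortex (interval -0.09 to 0.15, limma adjusted p = 0.713). In thalamus its means were 1306 ± 136 and 1436 ± 111, with 4 TBI libraries above all sham ones and an interval of -0.02 to 0.30 (limma adjusted p = 0.173). With upper quartile scaling the thalamic value of Xrn1 was 0.20 and passed the test (adjusted p = 0.0291).

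More of the genes differed between regions than between TBI and sham rats. The same held over all loci, and the counts of the set lay near the shares of all loci called. In sham rats 7 of 10 were called between thalamus and cortex, where 62.2% of 15582 loci were, and in TBI rats 5 of 10, where 57.5% of 15737 were. Higher in thalamus in both were Rnaset2, Rnh1 and Dicer1, each in 6 of 6 sham and 6 of 6 TBI rats. Rnh1 had a log2FC of 0.51 (limma adjusted p = 2.30e-06) in sham and 0.37 (limma adjusted p = 3.04e-05) in TBI rats, and Dicer1 of 0.36 (limma adjusted p = 6.43e-05) and 0.28 (limma adjusted p = 0.000322). Rnaset2 was higher by 0.40 (limma adjusted p = 1.80e-05) in sham and by 0.94 (limma adjusted p = 6.75e-07) in TBI rats. Drosha and Xrn1 were lower in thalamus in every rat of both groups, with log2FC of -0.21 in sham and -0.22 in TBI rats for Drosha and of -0.32 and -0.21 for Xrn1. The 2 microRNA nucleases thus lay on opposite sides, Dicer1 higher and Drosha lower in thalamus.

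**Figure D4:**
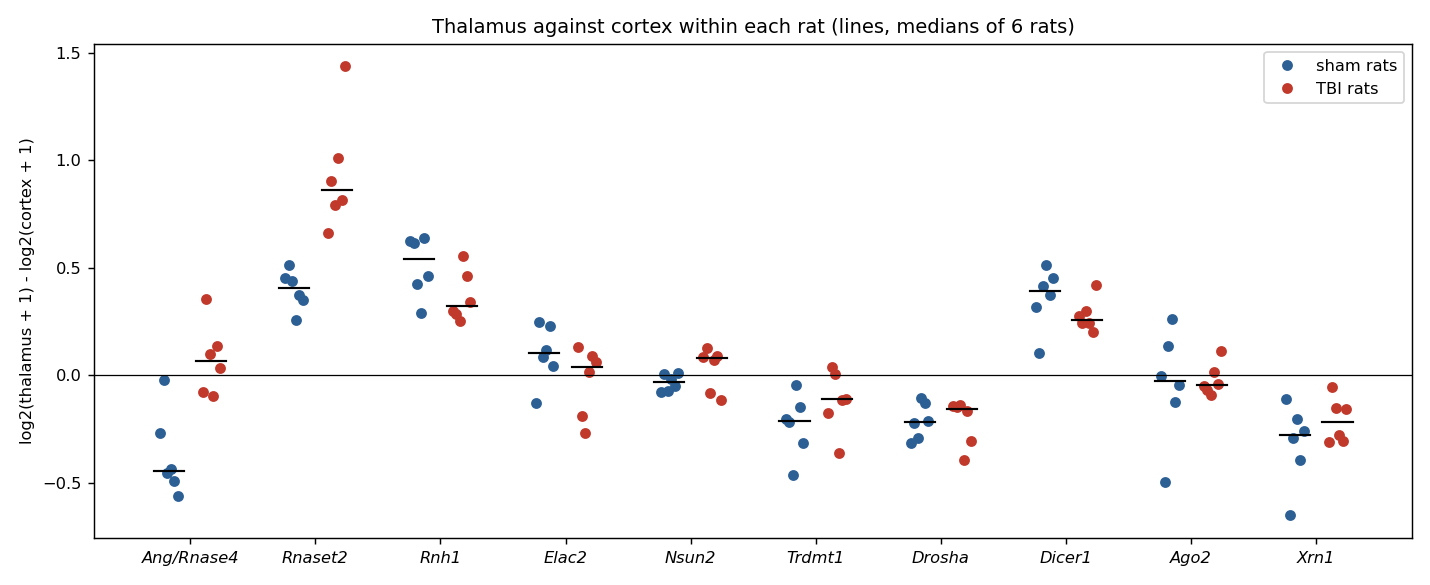
The log2 difference between the thalamus and cortex library of each rat (y axis) for the 10 genes (x axis), sham rats in blue and TBI rats in red, with lines at the medians. The Ang/Rnase4 locus has a median of -0.45 in sham and 0.07 in TBI rats, Rnaset2 of 0.40 and 0.86, and Dicer1 and Drosha keep opposite signs in all 12 rats.

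Trdmt1 was called lower in thalamus in sham rats (log2FC -0.23, limma adjusted p = 0.00372) and not in TBI rats (log2FC -0.12, limma adjusted p = 0.187). That pair of results does not show a difference between the groups of rats: tested directly, the effect of injury on Trdmt1 differed between regions by 0.11 (SE 0.09, limma adjusted p = 0.515). Elac2, Nsun2 and Ago2 were called in neither comparison, with log2FC values between -0.05 and 0.10. Of the 10 differences between the thalamic and the cortical effect of injury, only those of Rnaset2 and the Ang locus were called. Of all 15678 loci, 7.26% were called there. With the rat as a replicate block, 2, 7 and 5 genes were called in these 3 paired comparisons, the same numbers as without it. Of all loci, the block called 1301 of 15678, 9810 of 15582 and 9395 of 15737. Dicer1 resembled most closely Esyt2 (r = 0.957), which tethers membranes, Dennd1b (r = 0.951), Hmbox1 (r = 0.945), Shisa6 (r = 0.939), which makes a glutamate receptor subunit partner, and Fryl (r = 0.938) over the same 24 libraries. All 5 had higher means in thalamus than in cortex in sham rats, as Dicer1 did, which follows from choosing them by their likeness to it.

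Other genes of the same pathways moved little. Setting the 10 genes aside, 5 lists drawn up from general knowledge held 132 loci with a name, of which 124 passed the filter: ribonucleases of the RNase A and H families, microRNA biogenesis and silencing, tRNA end maturation with splicing and ligation, tRNA modification, and RNA decay. In cortex 13 of the 124 (10.5%) were called, 4 higher and 9 lower, beside 29.2% of all loci. In thalamus 16 (12.9%) were called, 5 higher and 11 lower, beside 35.4%. The median log2FC over the 124 was -0.03 in both regions. The cortical count ranged from 5 to 20 when single libraries were left out and was 8 with upper quartile scaling. It was 5 without sham rat 26, 38 or 50 or TBI rat 45, 6 without TBI rat 52, 8 without sham rat 34 or TBI rat 24 or 56, and 20 without TBI rat 63, and the thalamic one fell to 10 without sham rat 55 or TBI rat 24, so these counts rest on many calls near the threshold.

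**Figure D5:**
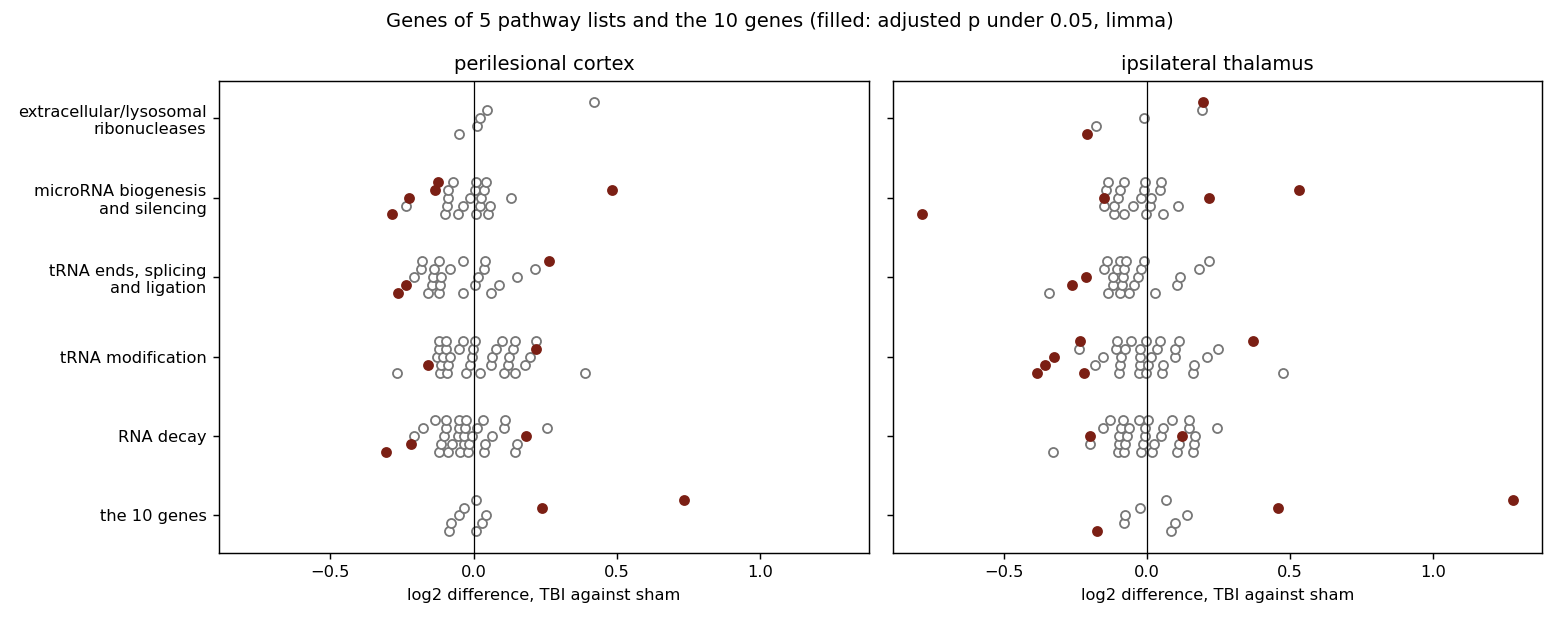
Log2FC of TBI against sham (x axis) for the genes of 5 pathway lists and the 10 genes (rows), in cortex (left) and thalamus (right); filled points passed an adjusted p of 0.05, and vertical spread within a row only separates points. Most list genes lie close to 0, and Rnaset2 at 1.28 in thalamus lies farther from 0 than any of them. The row labelled extracellular/lysosomal ribonucleases holds the genes of the RNase A and H families.

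Among the ribonucleases 5 were tested, Rnase13 of the RNase A family and Rnaseh1, Rnaseh2a, Rnaseh2b and Rnaseh2c of the RNase H family. Rnase1, Rnase2, Rnase6, Rnase9, Rnase10, Rnase11 and Rnase12 did not pass the filter, so most relatives of Ang were not tested. In cortex 0 of the 5 were called by limma, edgeR or DESeq2, with 0 at an unadjusted p under 0.05. In thalamus 2 were called by limma. Rnaseh2b was higher and Rnaseh2a lower, both subunits of the enzyme that removes ribonucleotides from DNA. Of 24 microRNA genes, 5 were called in cortex and 4 in thalamus. Mov10, an RNA helicase of Argonaute complexes, rose from 306 ± 55.98 to 426 ± 58.7 in cortex (log2FC 0.48, limma adjusted p = 0.00877) and from 213 ± 19.4 to 312 ± 67.3 in thalamus (log2FC 0.53, limma adjusted p = 0.00351; SD, n = 6 each). Adarb1, which encodes the adenosine deaminase ADAR2 that edits messenger and microRNA precursors, fell from 11065 ± 662 to 9089 ± 658 in cortex (log2FC -0.29, limma adjusted p = 0.00184). In thalamus it fell from 57156 ± 6344 to 33147 ± 3520 (SD, n = 6 each), with a log2FC of -0.79 (limma adjusted p = 1.39e-05). The groups of Adarb1 did not overlap in either region. Those of Mov10 did not overlap in thalamus, and in cortex 4 TBI libraries were above all sham libraries. A lack of overlap, in cortex or in thalamus, was a condition for giving values. The 2 falls of Adarb1 differed (difference -0.50, SE 0.10, limma adjusted p = 0.00438). Neuronal markers fell beside it, 7 of 12 in cortex and 11 of 12 in thalamus, where their summed level was 248638 to 296616 in sham and 159770 to 204609 in TBI rats, and their part in the fall of Adarb1 was not tested. The other microRNA genes called, named after their values were seen, were Ran, Ago1 and Hsp90aa1, lower in cortex, and Ddx17, higher, and Adar, lower, in thalamus.

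Of 25 genes of tRNA end maturation, splicing and ligation, 3 were called in cortex and 2 in thalamus. Ddx1, a helicase of the tRNA ligase complex, fell in both regions, from 5545 ± 362 to 4623 ± 362 in cortex (log2FC -0.26, limma adjusted p = 0.00371) and from 6560 ± 351 to 5473 ± 340 in thalamus (log2FC -0.26, limma adjusted p = 0.00132; SD, n = 6 each). Its groups did not overlap in thalamus, for which it was chosen, and in cortex 5 TBI libraries were below all sham libraries. The rest, named after their values were seen, were Tsen34, a subunit of the tRNA splicing endonuclease, higher, and Trmt10c, a subunit of mitochondrial RNase P, lower, in cortex, and Trpt1, lower, in thalamus. Of 36 tRNA modification genes, 2 were called in cortex, Pus7 higher and Elp3 lower, and 6 in thalamus. The 6 were Pus10, higher, and Trmt61a, Pus1, Trub1, Elp3 and Bcdin3d, lower. Trmt61a, which is the catalytic subunit of a tRNA adenosine methyltransferase, went from 858 ± 59.2 to 660 ± 80.0 (log2FC -0.38, limma adjusted p = 0.00214) and the pseudouridine synthase Trub1 from 591 ± 58.5 to 461 ± 39.6 (log2FC -0.36, limma adjusted p = 0.00307; SD, n = 6 each), both without overlap. That lack of overlap was a condition for giving values. In thalamus 11 of 12 neuronal markers fell too, and their part in the falls of Ddx1, Trmt61a and Trub1 was not tested. The cortical values of Trmt61a and Trub1 were -0.10 (limma adjusted p = 0.453) and -0.09 (limma adjusted p = 0.320). Neither difference between regions passed the test (limma adjusted p = 0.166 and 0.118). Over all 5 lists, the effect of injury differed between regions for 2 of the 124 genes (1.61%), beside 7.26% of all loci. They were Adarb1 and Pus1, a pseudouridine synthase named after its values were seen, with a log2FC of 0.07 in cortex (limma adjusted p = 0.561) and -0.32 in thalamus (limma adjusted p = 0.00156) and a difference of -0.39 (SE 0.10, limma adjusted p = 0.0158). Of 34 RNA decay genes, 3 were called in cortex and 2 in thalamus, without any whose groups did not overlap. Fmr1 of the microRNA list and Trmt2b, Dus1l, Adat3 and Elp2 of the modification list were not analysed here.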

How the data were processed

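Messenger RNA-seq libraries of 2 brain regions from 12 rats were analysed. The authors made stranded poly(A) libraries, aligned reads with TopHat2 2.0.11 and Bowtie2 2.2.2 and assembled loci with Cufflinks 2.2.1, per the labels. They deposited 1 table of a normalized signal, fragment counts divided by a size factor per library. Whole fragments were recovered from its steps for 99.97% to 99.99% of values (tolerance 0.1 fragment), which gave the depth and allowed count tests as alternatives. In the thalamus library of sham rat 55 the step (0.989) lay so near 1 that it could not be told from rounding, so its depth and the count tests rest on that step. Loci without a gene name (37.1% of loci, 1.90% to 2.23% of a library) were left out. Within each region TBI and sham rats were compared with limma 3.58.1 (R 4.3.3, lmFit, eBayes with trend) on log2(value + 1), keeping loci whose mean was 10 or more, with Benjamini-Hochberg adjustment over all loci. The difference of the effects between regions was an interaction over 24 libraries, and regions were compared within sham and within TBI rats. These comparisons share libraries. Alternatives were TMM and upper quartile scaling, pseudocounts of 0.1 and 5, no filter, a mean of at least 50, edgeR 4.0.16 and DESeq2 1.42.0 on recovered fragments, each library left out, 1 fit of all libraries for the effects within regions, and, for comparisons over regions, the rat as block or, for the interaction, no rat 45. The rat numbers in the labels pair the regions: the deviations of the 2 libraries of a rat correlated with a median of 0.187 (0.0039 to 0.569), over 0.1 in 10 of 12 rats. The genes and lists were chosen with earlier results of these data known. A gene of a pathway list and one of a marker list are not reported here. Values were named for all 10 genes and, per list and region, for up to 2 rises and 2 falls past the threshold whose groups did not overlap. Pattern likeness is a Pearson r over 24 libraries, without a test. The steps were tested on simulated data. Figures were drawn with matplotlib 3.10.9.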

Additional observations from a re-analysis of the deposited data

Results flagged for a closer look

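The effect of injury differed between regions for 4 of the genes given with values. It was larger in thalamus than in cortex by 0.54 for Rnaset2 (limma adjusted p = 0.00384) and by 0.45 for the Ang locus (limma adjusted p = 0.00548), and the difference was -0.50 for Adarb1 (limma adjusted p = 0.00438), whose fall was larger in thalamus, and -0.39 for Pus1 (limma adjusted p = 0.0158), which was called lower in thalamus and not in cortex.

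A single library stood apart in 7 of 64 groups of 6 libraries, over 16 genes, where chance alone sets apart about 1 group in 20. For Dicer1 the TBI thalamus library of rat 56 had a normalized count of 2161, below 2425 to 2527 in the other 5. For Nsun2 the sham thalamus library of rat 34 had 1875, below 1982 to 2046. For Trdmt1 the sham cortex library of rat 34 had 884, above 722 to 777. For Ago2 the sham thalamus library of rat 38 had 3932, above 2319 to 2823. For Adarb1 the TBI cortex library of rat 45 had 7846, below 8981 to 9570. For Mov10 the TBI thalamus library of rat 45 had 443, above 269 to 327. For Trmt61a the sham cortex library of rat 50 had 719, below 912 to 1024. Of these groups, 4 belong to the 10 genes and none of those 4 to a gene called between TBI and sham rats.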

How the results depend on the processing

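The calls of Rnaset2, the Ang locus and Rnh1 between TBI and sham rats and all calls between regions passed the test under each of the alternatives run, and the calls of Elac2 in thalamus and the non-call of Xrn1 there did not hold under all, as given above. In cortex 2 of the 10 genes were called under all 21 alternatives, and in thalamus 2 or 3. The log2FC of Rnaset2 ranged from 0.70 to 0.80 in cortex and 1.23 to 1.34 in thalamus, that of the Ang locus in thalamus from 0.43 to 0.52, and that of Rnh1 in cortex from 0.21 to 0.30. Over all loci, edgeR on recovered fragments called 4533 loci in cortex, 5481 in thalamus and 1179 for the difference between regions, DESeq2 5028, 5939 and 1555, and limma 4531, 5516 and 1138. With the rat as a replicate block the difference between regions was called for 1301 loci, and the block changed no call of the 10 genes.

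Only values without a call changed sign. With upper quartile scaling these were Elac2 (0.012) and Trdmt1 (0.030) in cortex and Nsun2 (0.040) in thalamus. With single libraries left out, the cortical values ranged from -0.028 to 0.047 for the Ang locus, -0.010 to 0.025 for Dicer1, -0.083 to 0.0080 for Trdmt1 and -0.028 to 0.091 for Ago2. The difference between regions ranged from -0.025 to 0.029 for Drosha and -0.037 to 0.13 for Ago2, thalamus against cortex from -0.16 to 0.0015 for Ago2 in sham rats, and in TBI rats from -0.083 to 0.046 for Ago2 and -0.047 to 0.0090 for Elac2. The cause of these shifts was not tested.

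Each gene of the set had at least 511 fragments in each library, and counting error and the spread between rats were not separated. Splice forms, protein levels and enzyme activity were not measured, and the libraries hold no value for Ang apart from Rnase4.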

Other observations

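The level of the Ang locus relative to that of its inhibitor was also described within each library, where no scaling between libraries enters. The log2 ratio of the normalized count of the Ang locus to that of Rnh1 ranged from 0.65 to 0.96 with a median of 0.70 in sham cortex and from 0.21 to 0.70 with a median of 0.57 in TBI cortex. It ranged from -0.32 to 0.06 with a median of -0.15 in sham thalamus and from 0.05 to 0.42 with a median of 0.26 in TBI thalamus. The ratio was lower in thalamus than in cortex in sham rats without overlap, and the TBI groups lay between the sham groups in median. Since locus lengths differ, the sign of a ratio says nothing of which messenger is more abundant, and the ratio was not tested.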
